A study of Mus musculus with 24 samples.

Results

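Described here are YAP, TAZ and genes of their pathway, 9 genes picked by symbol from a table of 12091 mouse genes. They are Yap1 (YAP), Wwtr1 (TAZ), their DNA-binding partner Tead1, the LATS kinase inhibitor Ajuba, and the targets Lats2, Amotl2, Ccn1, Ccn2 and Ankrd1. All 9 were present in the table. The study blocked or depleted pleiotrophin (PTN), a secreted growth factor, in mouse breast cancer, and RNA from 24 samples was sequenced in 4 experiments of 3 samples against 3. In the first, 4T1 cells grew in the mammary fat of female BALB/c mice implanted at 8 weeks of age, and the mice received the anti-PTN antibody 3B10 (15 mg/kg, 2 doses per week) or the mouse IgG C44 as control. In the second, female MMTV-PyMT mice on FVB/N, whose tumors arise from a middle T transgene driven in mammary epithelium by a viral promoter, received 3B10 (15 mg/kg) or C44 from 8 weeks of age until harvest at 12 weeks. The other 2 experiments used cultured C57BL/6 cells: E0771, a poorly metastatic line from a spontaneous mammary adenocarcinoma, and E0771-LG, a line taken from a lung metastasis of E0771. Both lines carried either 1 short hairpin RNA against Ptn (shPTN) or a pLKO.1-puro hairpin against EGFP (shCtrl) and were kept in puromycin for 6 weeks.

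YAP (Yap1) and TAZ (Wwtr1) are transcriptional coactivators that enter the nucleus when Hippo kinase signalling is low and bind DNA through TEAD factors. The LATS kinases phosphorylate them and hold them in the cytoplasm, and LATS2 and the angiomotins are themselves transcribed under YAP and TAZ, which closes a negative feedback loop. In mammary carcinoma cells this pathway is known to respond to cell density, matrix stiffness and growth factors, and its secreted targets CCN1 and CCN2 act on the matrix around the tumor.

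Promoters are shown for Amotl2, Ajuba and Lats2, which were each called higher in E0771 as described below, and for Ccn1 and Ankrd1, known targets that were not called there. For 7 of the 9 members a promoter of 300 bases (250 before and 50 after the start site) was found in RefSeq on GRCm38.p6, and Tead1 and Ccn2 had none. Capitals mark GGAATG or its reverse complement CATTCC, the core of the TEAD motif, searched on both strands. All sequences below were read 5′ to 3′ on the strand of the gene: Amotl2 on the plus strand (chr9:102717554-102717853), Ajuba on the minus strand (chr14:54577612-54577911), Lats2 at the first of its 2 listed start sites on the minus strand (chr14:57746074-57746373), Ccn1 on the minus strand (chr3:145649936-145650235) and Ankrd1 on the minus strand (chr19:36119795-36120094).
Amotl2: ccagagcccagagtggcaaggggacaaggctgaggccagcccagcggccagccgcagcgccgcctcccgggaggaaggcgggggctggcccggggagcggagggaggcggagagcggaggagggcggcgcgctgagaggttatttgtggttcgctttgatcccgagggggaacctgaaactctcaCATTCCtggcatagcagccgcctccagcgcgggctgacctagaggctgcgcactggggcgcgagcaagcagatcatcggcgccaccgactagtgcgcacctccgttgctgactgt
Ajuba: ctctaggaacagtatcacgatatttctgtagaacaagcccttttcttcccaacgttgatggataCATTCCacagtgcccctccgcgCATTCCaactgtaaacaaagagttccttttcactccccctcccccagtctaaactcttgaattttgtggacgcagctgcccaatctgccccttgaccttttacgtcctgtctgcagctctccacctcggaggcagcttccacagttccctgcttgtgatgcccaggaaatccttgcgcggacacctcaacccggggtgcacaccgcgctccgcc
Lats2: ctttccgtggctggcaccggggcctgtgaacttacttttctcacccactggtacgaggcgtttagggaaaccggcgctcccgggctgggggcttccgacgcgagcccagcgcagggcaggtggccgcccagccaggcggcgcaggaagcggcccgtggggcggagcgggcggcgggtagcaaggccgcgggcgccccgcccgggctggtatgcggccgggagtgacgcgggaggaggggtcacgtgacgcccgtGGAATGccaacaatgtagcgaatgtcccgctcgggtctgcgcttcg
Ccn1: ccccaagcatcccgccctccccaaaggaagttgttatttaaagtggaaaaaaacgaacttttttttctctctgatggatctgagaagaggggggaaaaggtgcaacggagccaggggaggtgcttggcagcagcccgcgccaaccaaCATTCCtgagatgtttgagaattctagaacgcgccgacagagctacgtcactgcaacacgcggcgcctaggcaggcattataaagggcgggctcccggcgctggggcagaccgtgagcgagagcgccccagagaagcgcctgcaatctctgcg
Ankrd1: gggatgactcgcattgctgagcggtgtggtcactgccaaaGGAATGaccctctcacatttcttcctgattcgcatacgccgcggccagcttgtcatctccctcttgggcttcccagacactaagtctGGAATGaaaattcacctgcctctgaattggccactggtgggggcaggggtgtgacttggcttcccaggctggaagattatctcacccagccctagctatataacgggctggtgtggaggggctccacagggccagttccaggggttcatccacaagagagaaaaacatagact

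Each of the 7 genes held the TEAD motif, in 8 of 9 promoters (88.9%), against 4817 of 32851 promoters of all genes (14.7%). Ankrd1, a nuclear ankyrin repeat protein, held the motif at positions -210 to -205 and -123 to -118 from its start site, and Ajuba, a LIM protein that binds and inhibits LATS kinases, held it at -186 to -181 and -164 to -159. Single matches lay at -103 to -98 in Ccn1, at -65 to -60 in Amotl2, at 5 to 10 in Lats2 and at -141 to -136 in Yap1. In Wwtr1 the match stood at -136 to -131 from 1 start site and at -170 to -165 from the other, which is the same stretch of DNA. In a wider list of YAP and TAZ targets the motif was found in 7 of 15 genes (41.2% of 17 promoters), and 4 of these 7 genes were the members Amotl2, Lats2, Ccn1 and Ankrd1. The AP-1 motif TGANTCA was in none of the 9 member promoters (7.81% of all promoters), and neither was the SRF motif known as the CArG box (1.63%). The figure of motif positions sets the matches side by side.

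**Figure D1:**
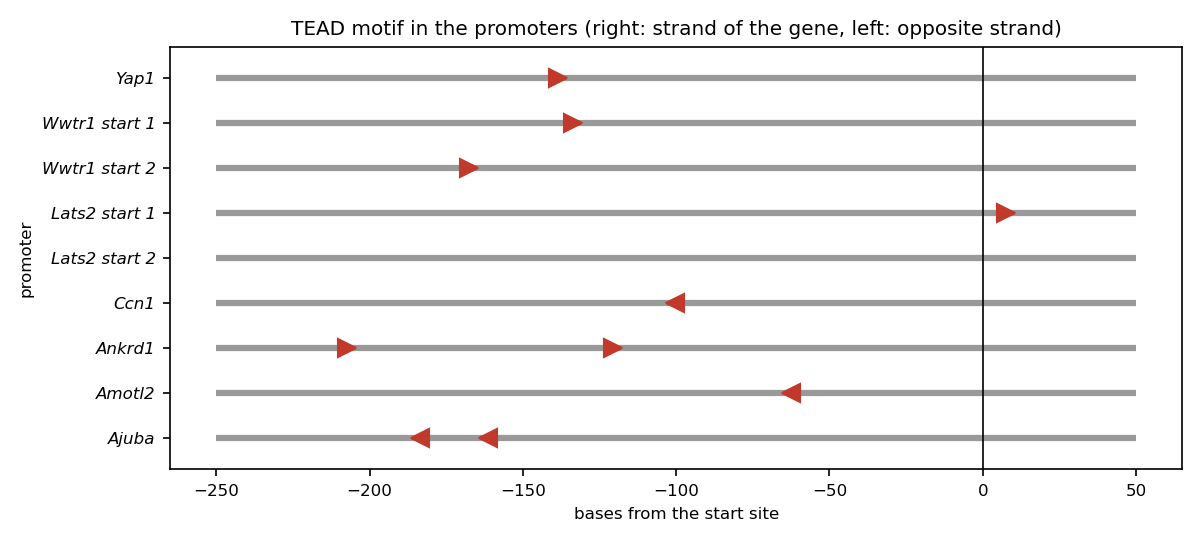
Positions of the TEAD motif in the promoters of 7 members, in bases from the start site. The 9 promoters held 10 matches, from -210 to 5.

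Levels below are log2 values. For MMTV-PyMT, E0771 and E0771-LG they are log2 CPM (counts scaled to the same total in each sample), with 0.5 read added, and reads were recovered from them. For 4T1 they are normalized for gene length as well, and so log2 levels of 4T1 tumors were not set against those of other groups. Between genes, levels were compared only per kilobase of exon, and each gene was ranked among all genes of the same group, which gives 4T1 a rank but no shared scale. On that scale Wwtr1 was the most abundant member in E0771shCtrl (5.57, above 90.9% of genes) and Ccn1 in E0771-LGshCtrl (5.84, above 92.6%) and in MMTV-PyMT C44 tumors (6.69, above 96.9%). Ccn2 ranked low in cultured cells, above 18% of genes in E0771shCtrl and 41.5% in E0771-LGshCtrl, and high in tumors, above 81.9% in MMTV-PyMT C44 and 93.7% in 4T1 C44. Ankrd1 was above 92.4% of genes in 4T1 C44 tumors, and above 7.46% in MMTV-PyMT C44, 18.7% in E0771shCtrl and 17.6% in E0771-LGshCtrl.

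Across the 6 groups on the CPM scale, the order of levels differed by member. Yap1 was lowest in E0771-LGshPTN (7.18), apart from E0771shCtrl (7.55), E0771-LGshCtrl (7.57) and E0771shPTN (7.57), which overlapped each other, and was highest in MMTV-PyMT tumors (7.79 under C44, 7.85 under 3B10). Tead1, the DNA-binding partner, was lowest in the tumors (5.87 under C44, 5.95 under 3B10), higher in E0771-LGshPTN (6.43), and highest in the other 3 cell groups (7.33, 7.48 and 7.66), which lay above all of these. The tumors and E0771-LGshPTN overlapped in Tead1, since replicate 2 of MMTV-PyMT C44 was at 6.36 and the lowest E0771-LGshPTN sample at 6.30. Ccn2 stood lowest in E0771shCtrl (1.32), next in the other cell groups (2.88, 2.91 and 3.70, overlapping each other), and highest in the tumors (6.14 and 6.50). For Amotl2, Ankrd1 and Ajuba, all groups next to each other in the order overlapped. The figure of values by sample shows these levels.

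**Figure D2:**
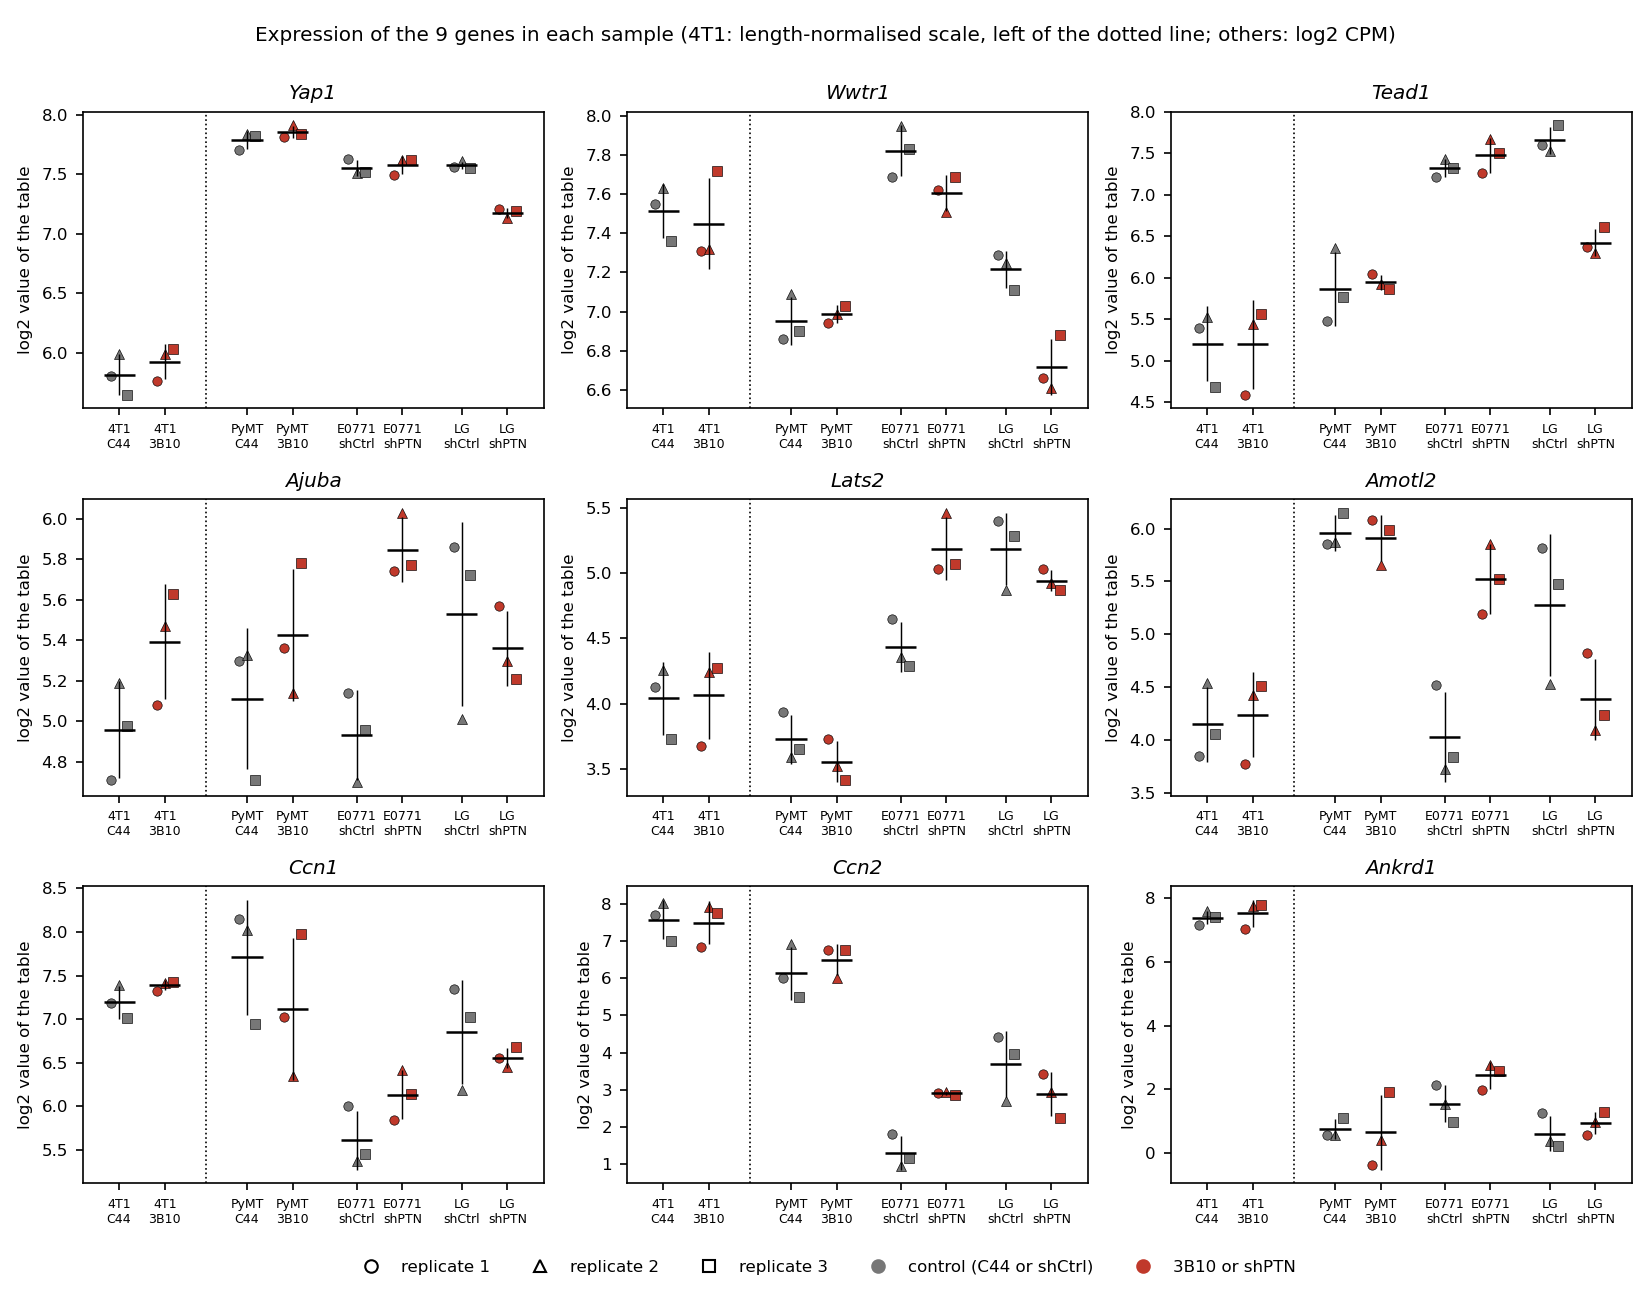
Log2 value of each of the 9 members in each of the 24 samples, with 4T1 on its own scale. Ccn2 in E0771 went from 1.83, 0.95 and 1.17 in shCtrl to 2.92, 2.95 and 2.86 in shPTN.

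The cell lines lacked several epithelial markers. Krt5 and Krt19 had 0 reads in all 6 E0771 samples and Cdh1 (E-cadherin) had at most 7 reads in any of the 12 cell samples, whereas Krt8 had at least 1518 and Epcam at least 129. Of 6 leukocyte markers, Itgam and Cd3e had 0 reads in all E0771 samples and at most 3 in any E0771-LG sample, and Ptprc (at most 13) and Csf1r (at most 14) were low in all cells, but Cd68 had 72 to 311 reads in E0771 and 11 to 105 in E0771-LG, and Cd14 had 68 to 190 and 125 to 369. In the MMTV-PyMT tumors Epcam had at least 15918 reads and Cdh1 at least 8720. In every tumor the fibroblast and leukocyte markers were present as well, except that Cd3e was too low to test in MMTV-PyMT. Because tumors and cultures were measured in bulk, fewer cells of a type and less RNA per cell cannot be told apart. The study describes its samples as biological replicates without saying how those of a cell line were grown apart, and the p-values measure spread between these samples.

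In E0771 cells, RNA of Ccn2, Amotl2, Ajuba and Lats2 was higher in shPTN than in shCtrl, with no call for the coactivators or for the targets Ccn1 and Ankrd1. Both lines had only 1 hairpin against Ptn, and effects of that hairpin other than on Ptn were not tested. Ptn itself had 128, 92 and 80 reads in E0771shCtrl and 12, 21 and 22 in E0771shPTN (log2 fold change -2.40, standard error (SE) 0.37, limma adjusted p = 0.00159). Of the 9 members, 4 rose and none fell (Ccn2, Amotl2, Ajuba and Lats2), at a limma p adjusted over all tested genes under 0.05, the threshold for a call used throughout. Over all 10394 genes tested, 20.6% were called, 8.89% higher and 11.7% lower. Median log2 fold change was 0.75 over the members and -0.03 over all genes.

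The coactivators and their DNA-binding partner differed little in E0771. Yap1 was 7.63, 7.51 and 7.52 in shCtrl and 7.49, 7.62 and 7.62 in shPTN, so the groups overlapped, with a log2 fold change of 0.02 (SE 0.08, limma adjusted p = 0.888). Wwtr1 was 7.69, 7.95 and 7.83 in shCtrl and 7.62, 7.51 and 7.69 in shPTN (-0.21, SE 0.09, limma adjusted p = 0.121). At 2 decimals all 3 Wwtr1 values of shPTN lay at or below the lowest of shCtrl, yet the difference was not called. Tead1 gave 0.15 (SE 0.11, limma adjusted p = 0.362), with groups that overlapped.

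Amotl2, Lats2 and Ajuba, which act on YAP, TAZ or the LATS kinases, were higher in E0771shPTN. Amotl2, an angiomotin that tethers YAP at cell junctions, was 4.52, 3.73 and 3.84 in shCtrl and 5.19, 5.85 and 5.52 in shPTN. Lats2, the kinase that phosphorylates YAP and TAZ, was 4.65, 4.36 and 4.29 in shCtrl and 5.03, 5.46 and 5.07 in shPTN. Ajuba was 5.14, 4.70 and 4.96 in shCtrl and 5.74, 6.03 and 5.77 in shPTN. In all 3 genes every shPTN sample was above every shCtrl sample. The share of all genes whose groups separated in this way was not counted, in this or in any other comparison. Amotl2 rose by 1.49 (SE 0.22, 2.81-fold, limma adjusted p = 0.00171), Ajuba by 0.91 (SE 0.13, 1.88-fold, limma adjusted p = 0.00122) and Lats2 by 0.75 (SE 0.15, 1.69-fold, limma adjusted p = 0.00601). Lats2 shares 2955 bases, 42.4% of its exon bases, with the gene Gm49361 on the same strand, and how reads there were assigned is not stated.

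Ccn2, a secreted matricellular protein and the most used readout of YAP and TAZ, rose most of the 9 members in E0771. It went from 1.83, 0.95 and 1.17 (61, 39 and 37 reads) in shCtrl to 2.92, 2.95 and 2.86 (146, 139 and 113 reads) in shPTN. The 3 knockdown samples lay close together and above all controls, of which replicate 1 was the highest. The rise was 1.59 (SE 0.27, 3.01-fold, limma adjusted p = 0.00237). Under the alternatives it ran from 1.28 to 1.85, and that of Amotl2 from 1.33 to 1.74, so Ccn2 did not rise most in all of them. Ccn2 shares 665 bases, 23.2% of its exon bases, with Gm15270 on the opposite strand, and whether reads were counted by strand is not stated.

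The other target genes had positive differences whose size and call depended on which samples were included. Ccn1, a secreted protein related to CCN2, was 6.00, 5.38 and 5.46 in shCtrl and 5.85, 6.42 and 6.14 in shPTN, with an overlap between the high control replicate 1 and the low knockdown replicate 1. Its difference of 0.52 (SE 0.18) was not called (limma adjusted p = 0.0719), but was 0.71 (limma adjusted p = 0.0146) without replicate 1 of E0771shCtrl and 0.66 (limma adjusted p = 0.0314) without replicate 1 of E0771shPTN. Ankrd1 was 2.15, 1.54 and 0.97 in shCtrl (76, 59 and 32 reads) and 1.97, 2.77 and 2.58 in shPTN (75, 123 and 93 reads), and again the 2 samples numbered 1 overlapped. Its difference of 0.89 (SE 0.33, limma adjusted p = 0.0858) became 1.19 (limma adjusted p = 0.0347) without replicate 1 of E0771shCtrl and 1.12 (limma adjusted p = 0.0395) without replicate 1 of E0771shPTN. Other samples moved these values the other way: over all alternatives Ccn1 ran from 0.38 to 0.71 (limma adjusted p up to 0.227) and Ankrd1 from 0.59 to 1.19 (limma adjusted p up to 0.289, without replicate 3 of E0771shCtrl).

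Wider lists of the pathway were counted in the same fit. Of 17 YAP and TAZ targets tested, among them 5 of the members, 7 were called higher and 2 lower (52.9% called, against 20.6% of all genes; median 0.52, against -0.03). Tgfb2, a secreted TGF-beta ligand, rose by 1.53 (SE 0.20, limma adjusted p = 0.00065), while Gadd45a (-0.65, SE 0.18, limma adjusted p = 0.0248) and Myof (-0.53, SE 0.10, limma adjusted p = 0.00589) fell. Of 19 Hippo core and upstream genes tested, 4 were higher, namely Amotl2, Lats2, the atypical cadherin Fat1 (1.03, SE 0.17) and the kinase Taok3 (0.40, SE 0.13), and 2 were lower, the kinase Map4k4 (-0.36, SE 0.09) and Mob1a (-0.34, SE 0.07), a cofactor of LATS (31.6% called, median -0.04, 12 of 19 below 0). Besides Ajuba, 1 of the 6 tested inhibitors of the Hippo kinases was called, Strn, which fell by 0.48 (SE 0.10, median of the 6 genes 0.09). Among 7 coactivators and TEAD genes, Vgll4, a competitor of YAP for TEAD, rose by 0.40 (SE 0.11), and Tead4 (-0.62, SE 0.13) and Tead2 (-0.51, SE 0.09) fell (median 0.02).

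Targets of SRF, a factor that answers to actin and shares stimuli with YAP, were counted beside them. Of 12 tested, 7 were called higher and 1 lower in E0771 (66.7% called, median 0.35), against 20.6% of all genes called and 8.89% higher (median -0.03). Myl9, a myosin light chain, went from 2.26, 2.16 and 2.95 to 4.73, 5.03 and 4.98 (2.46, SE 0.21, limma adjusted p = 5.27e-05), and Acta2, smooth muscle actin, from 5.33, 4.58 and 4.93 to 7.10, 7.72 and 7.15 (2.38, SE 0.21, limma adjusted p = 0.000226). In both genes every knockdown sample was above every control sample. Fhl2 rose by 1.07 (SE 0.17) and Tpm1 by 1.06 (SE 0.14), and Flna, which crosslinks actin, fell by 0.40 (SE 0.10).

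Fibroblast markers moved with these members in E0771. All 5 tested were higher in shPTN (Dcn and Lum were too low to test), and their summed level off the log scale was 74.8, 101 and 86.3 in shCtrl and 331, 293 and 330 in shPTN, with Pdgfra the most abundant in shCtrl and Col3a1 in shPTN. The epithelial markers summed to 99.3, 114 and 107 in shCtrl and 115, 98.9 and 108 in shPTN, most of it Krt8. Of these, 0 of 2 tested were called by limma and 1 had an unadjusted p under 0.05, and the other 5 of the 7 lay under 1. Leukocyte markers summed to 10.7, 24.6 and 18.8 in shCtrl and 11.3, 10 and 9.02 in shPTN, with Cd68 the most abundant in 5 of the 6 samples, and 0 of 2 tested were called by limma, both at an unadjusted p under 0.05. The part of these markers in the rise of the members was not tested.

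**Figure D3:**
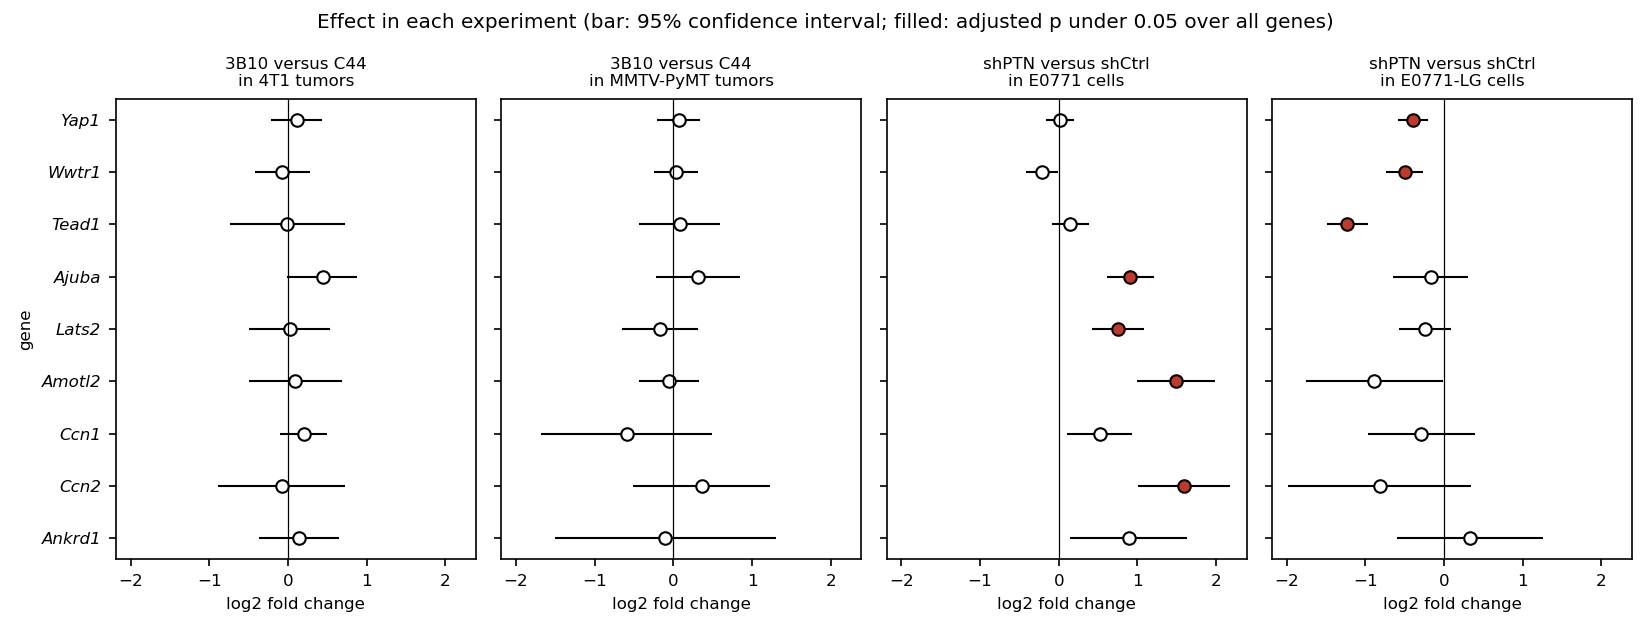
Log2 fold change of the 9 members in each experiment with 95% confidence intervals. In E0771, 4 members rose, in E0771-LG 3 fell, and in the tumors none was called.

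In E0771-LG cells, RNA of the coactivators and of Tead1 was lower in shPTN than in shCtrl. Ptn had 216, 446 and 248 reads in E0771-LGshCtrl and 56, 35 and 45 in E0771-LGshPTN (-2.71, SE 0.28, limma adjusted p = 6.3e-05). Of the 9 members, 3 were called lower (Tead1, Wwtr1 and Yap1) and none higher, while over all 10405 genes tested 46.4% were called, 24.3% higher and 22.1% lower. The members' share of 33.3%, all of it lower, was thus above the share of all genes called lower and below the share called in total. The median difference was -0.40 over the members and 0.05 over all genes.

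Tead1 showed the largest fall, from 7.60, 7.53 and 7.84 in shCtrl to 6.37, 6.30 and 6.61 in shPTN. Wwtr1, the gene of TAZ, went from 7.29, 7.25 and 7.11 to 6.66, 6.61 and 6.88, and Yap1 from 7.56, 7.61 and 7.55 to 7.21, 7.13 and 7.19. All knockdown samples lay below all controls in each of the 3 genes, and the Yap1 samples varied least within their groups. How many of all genes separated like this was not counted. Tead1 fell by 1.23 (SE 0.12, to 42.7% of control, limma adjusted p = 4.95e-05), Wwtr1 by 0.50 (SE 0.11, to 70.6%, limma adjusted p = 0.00322) and Yap1 by 0.40 (SE 0.09, to 76%, limma adjusted p = 0.00395). These 3 calls held in every alternative tried.

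Ajuba and the target genes varied between the control samples of E0771-LG, with replicate 2 of E0771-LGshCtrl the lowest in 5 of them. Ccn2 was 4.42, 2.71 and 3.97 in shCtrl (371, 128 and 290 reads) and 3.44, 2.95 and 2.26 in shPTN (228, 139 and 83 reads). Amotl2 was 5.82, 4.53 and 5.48 in shCtrl and 4.82, 4.10 and 4.24 in shPTN, and Ccn1 was 7.34, 6.19 and 7.02 in shCtrl and 6.55, 6.45 and 6.68 in shPTN. In these 3 genes control replicate 2 lay within or below the range of the knockdown samples, while control replicates 1 and 3 lay above all of them. That library was below the mean of the other 2 controls by 1.48 in Ccn2, 1.12 in Amotl2, 0.99 in Ccn1, 0.79 in Ajuba and 0.47 in Lats2, and it had the highest Ptn value of the 12 cell samples (4.51).

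In the comparison of the 2 groups with all 6 samples, none of these genes was called in E0771-LG by limma. Amotl2 gave -0.89 (SE 0.36, limma adjusted p = 0.0866), Ccn2 -0.82 (SE 0.49, limma adjusted p = 0.21), Ccn1 -0.29 (SE 0.28, limma adjusted p = 0.437), Lats2 -0.24 (SE 0.15, limma adjusted p = 0.203) and Ajuba -0.17 (SE 0.21, limma adjusted p = 0.54). Ankrd1, at 21 to 42 reads per sample, gave 0.33 (SE 0.42, limma adjusted p = 0.545), and was -0.14 after quantile normalization. Without replicate 2 of E0771-LGshCtrl, 8 of 9 members were called lower, against 47.4% of all 10359 genes in either direction and 21.4% lower, with a median of -0.49 over the members and 0.07 over all genes. In that fit Amotl2 was -1.26 (limma adjusted p = 0.000801), Ccn2 -1.31 (limma adjusted p = 0.00689), Ccn1 -0.62 (limma adjusted p = 0.00156), Ajuba -0.43 (limma adjusted p = 0.0231) and Lats2 -0.40 (limma adjusted p = 0.0286). Without replicate 1 of E0771-LGshCtrl the values moved the other way and 3 members were called, with Ccn1 at -0.04 (limma adjusted p = 0.892), Ajuba at 0.00 (limma adjusted p = 0.991) and Lats2 at -0.13 (limma adjusted p = 0.472), and Amotl2 at -0.62 and Ccn2 at -0.46. Amotl2 was also called with 12 samples in 1 fit (-0.89, limma adjusted p = 0.0441). With a replicate block it was called too (-0.89, limma adjusted p = 0.0013), but whether samples of the same replicate number were pairs is not stated.

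Wider lists were counted in E0771-LG against the 46.4% of all genes called there (22.1% lower, median 0.05). Of 17 YAP and TAZ targets, 8 were lower and 2 higher (58.8% called, median -0.66). Without replicate 2 of E0771-LGshCtrl, 13 were lower and 2 higher. That library was the lowest control in Ccn2, Amotl2, Ccn1 and Lats2, which are on this list, so leaving it out must lower their values. The list was not counted without any other sample. With all samples, Tgfb2 (-0.94, SE 0.27), Asap1 (-0.91, SE 0.12), the receptor kinase Axl (-0.88, SE 0.10) and the phosphatase Ptpn14 (-0.87, SE 0.13) fell most among the called genes. Gadd45a (1.13, SE 0.32) and F3, tissue factor (0.56, SE 0.13), rose. Among 19 Hippo core and upstream genes, 8 fell and 1 rose (47.4% called, close to the share of all genes, median -0.35), with Mob1a at -0.91 (SE 0.10), Mob1b at -0.64 (SE 0.11), Frmd6 at -0.58 (SE 0.11) and Wwc1 at 0.66 (SE 0.13). Inhibitors of the Hippo kinases are not described in this line or in the difference between the lines, since 1 gene of that list is not reported. Among 7 coactivators and TEAD genes, Vgll4 fell by 0.50 (SE 0.11) beside the 3 members, and Tead2 rose by 0.55 (SE 0.14; 71.4% of the 7 genes called, median -0.40). Of 13 SRF targets 6 fell and 1 rose (53.8% called, median -0.19), with Acta2 at -2.27 (SE 0.29), Cnn1 at -2.24 (SE 0.36), Myl9 at -1.89 (SE 0.24), Vcl at -1.66 (SE 0.12) and Tpm2 at 0.33 (SE 0.11).

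Epithelial markers rose in E0771-LGshPTN, where the coactivators fell. All 3 tested were called higher (Krt18 3.00, Krt8 1.57 and Epcam 0.46), and their summed level off the log scale was 158, 204 and 164 in shCtrl and 424, 565 and 516 in shPTN, with Krt8 the most abundant, while Krt5 had at most 2 reads and Cdh1 at most 7. Fibroblast markers summed to 92, 145 and 107 in shCtrl and 58.3, 66.2 and 73.6 in shPTN, with Pdgfra the most abundant, and of 6 tested 2 were lower (Col1a1 -4.68 and Pdgfra -0.68) and 1 higher (Dcn 1.64). Of the leukocyte markers, 2 could be tested, and Cd68 was higher (2.17, SE 0.43) and Cd14 lower (-1.15, SE 0.19). The 6 summed to 19, 19.8 and 18 in shCtrl and 10.5, 13.6 and 15.4 in shPTN, with Cd14 the most abundant. The part of these markers in the fall of the members was not tested.

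The knockdown effect was then compared between the lines, as the effect in E0771-LG minus that in E0771. All 9 members had a negative difference, and 6 were called lower (Ccn2, Amotl2, Tead1, Ajuba, Lats2 and Yap1), against 34% of all 10600 genes called in either direction, 18.3% higher and 15.7% lower. Their median was -1.00, and that of all genes 0.08. The effect on Ptn itself did not differ by this test (-0.30, SE 0.48, limma adjusted p = 0.651).

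For Ccn2, Amotl2, Ajuba and Lats2, the difference came with a rise in E0771 and an uncalled negative value in E0771-LG. Ccn2 differed by -2.41 (SE 0.56, limma adjusted p = 0.00538), with effects of 1.59 and -0.82. For Amotl2 the difference was -2.38 (SE 0.47, limma adjusted p = 0.00325), with effects of 1.49 and -0.89. Ajuba (-1.08, SE 0.27, limma adjusted p = 0.00846) and Lats2 (-1.00, SE 0.22, limma adjusted p = 0.00385) had the same signs in each line. Tead1 (-1.38, SE 0.17, limma adjusted p = 6.21e-05) and Yap1 (-0.42, SE 0.11, limma adjusted p = 0.00946) differed the other way about, by a fall in E0771-LG with no call in E0771. Wwtr1 (-0.29, SE 0.14, limma adjusted p = 0.122) and Ankrd1 (-0.56, SE 0.55, limma adjusted p = 0.452) were not called, nor was Ccn1 (-0.81, SE 0.37, limma adjusted p = 0.114), which was called without replicate 2 of E0771-LGshCtrl (-1.14, limma adjusted p = 0.00455). Alternatives gave Ccn1 from -1.14 to -0.56 (limma adjusted p up to 0.245) and Ankrd1 from -0.94 to -0.24 (limma adjusted p up to 0.754).

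The same difference was counted in the wider lists other than the inhibitors of the Hippo kinases. These lists hold members, whose calls are counted again here. Ccn2, Amotl2 and Lats2 were among the lower targets, and Amotl2 and Lats2 among the lower Hippo core and upstream genes. Yap1 and Tead1 were among the lower coactivators and TEAD genes, beside Vgll4. Of 17 YAP and TAZ targets 11 were lower and 1 higher (70.6% called, median -1.00), of 13 SRF targets 7 were lower and none higher (53.8%, median -0.77), of 19 Hippo core and upstream genes 8 were lower and 1 higher (47.4%, median -0.34), and of 7 coactivators and TEAD genes 3 were lower and 1 higher (57.1%, median -0.29), against 34% called and a median of 0.08 over all genes. Tgfb2 differed by -2.47 (SE 0.36, limma adjusted p = 0.000256) and Axl by -1.40 (SE 0.11), and Gadd45a by 1.78 (SE 0.39) in the opposite direction. Markers differed here too: of 6 fibroblast markers tested, 4 were lower (Col1a1 -5.70, Col3a1 -3.29, Pdgfrb -2.72 and Pdgfra -2.10) and 1 higher (Dcn 3.07), of 3 epithelial markers 2 were higher (Krt18 3.90 and Krt8 1.62), and of 2 leukocyte markers 1 was higher (Cd68 3.09). Their part in the members' differences was not tested. The figure of the target list shows both lines gene by gene.

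**Figure D4:**
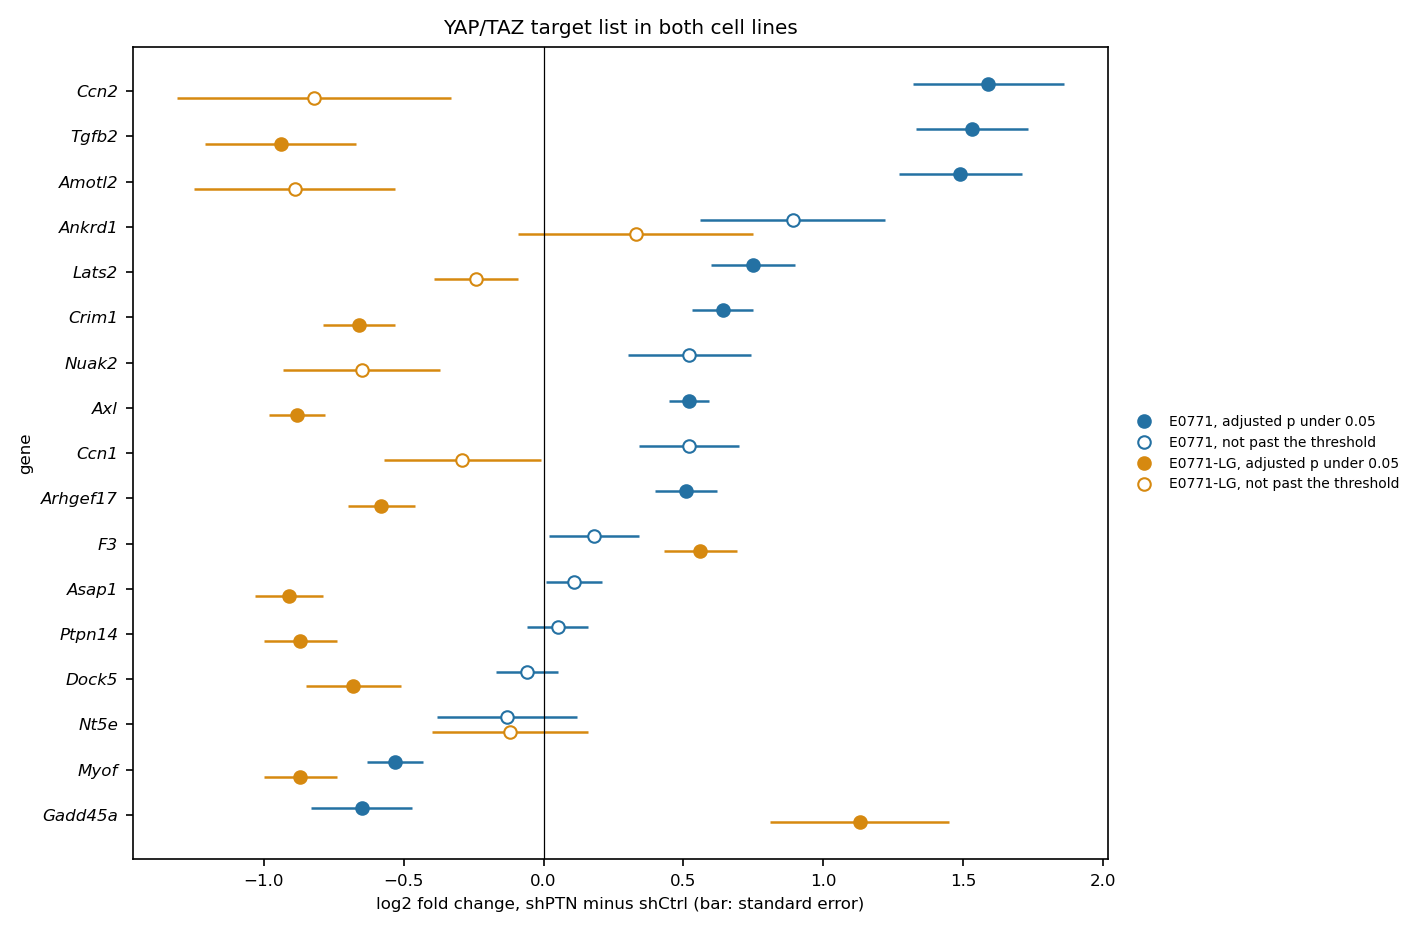
Knockdown effect on 17 YAP and TAZ targets in E0771 and E0771-LG, with standard errors. Tgfb2 was 1.53 in E0771 and -0.94 in E0771-LG, and Gadd45a was -0.65 and 1.13.

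Control cells of the lung-derived line already differed from control E0771 cells in these genes. Comparing E0771-LGshCtrl with E0771shCtrl, 6 of 9 members were higher and 1 lower, against 57.9% of all 10600 genes called, 20.5% higher and 37.3% lower. These control samples are the ones used in the knockdown comparisons, so the 2 sets of values are not independent. Ccn2 went from 1.32 (standard deviation (SD) 0.46) to 3.70 (SD 0.89), with no overlap, and Ccn1 from 5.62 (SD 0.34) to 6.85 (SD 0.59). Ptn was also higher in E0771-LGshCtrl, by 1.51 (SE 0.34, limma adjusted p = 0.00153).

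By size, Ccn2 led with 2.38 (SE 0.39, 5.21-fold, limma adjusted p = 0.000161), followed by Amotl2 with 1.25 (SE 0.33, limma adjusted p = 0.00733), Ccn1 with 1.23 (SE 0.26, limma adjusted p = 0.00191) and Lats2 with 0.75 (SE 0.16, limma adjusted p = 0.000883). Wwtr1 was lower, by -0.60 (SE 0.10, limma adjusted p = 0.000103), with all E0771-LGshCtrl samples below all E0771shCtrl samples, and Yap1 did not differ by this test (0.02, SE 0.08, limma adjusted p = 0.84). Ajuba was higher by 0.59 (SE 0.19, limma adjusted p = 0.0167), and not called without replicate 2 of E0771shCtrl (0.48, limma adjusted p = 0.075), replicate 1 of E0771-LGshCtrl (0.43, limma adjusted p = 0.0761) or its replicate 3 (0.50, limma adjusted p = 0.0674). Tead1 was higher by 0.33 (SE 0.12, limma adjusted p = 0.0276), and not called without replicate 1 of E0771shCtrl (0.28, limma adjusted p = 0.1), its replicate 3 (0.33, limma adjusted p = 0.0634), replicate 3 of E0771-LGshCtrl (0.24, limma adjusted p = 0.134), or without trend and robust fitting (0.33, limma adjusted p = 0.0531). Ankrd1, at -0.94 (SE 0.39, limma adjusted p = 0.0503), was called without replicate 3 of E0771shCtrl (-1.23, limma adjusted p = 0.0241), replicate 1 of E0771-LGshCtrl (-1.26, limma adjusted p = 0.015) or replicate 1 of E0771shPTN (-0.94, limma adjusted p = 0.0496). It was also called with a pseudocount of 1 (-0.64, limma adjusted p = 0.0458) and without trend and robust fitting (-0.94, limma adjusted p = 0.0439), while quantile normalization gave -0.43 (limma adjusted p = 0.399).

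The scaling of the samples mattered for the whole table in this comparison. The median over all genes was -0.15, and 35.5% of called genes were higher. With median-of-ratios scaling the median was 0.01 and 50.9% of called genes were higher, and with quantile normalization these were 0.00 and 51.1%. Under both, 7 members were still called in the same directions, with Ccn2 at 2.54 and 2.68 and Wwtr1 at -0.44 and -0.62. Of the 17 YAP and TAZ targets 7 were higher and 3 lower (58.8% called, median 0.22), and of 13 SRF targets 6 were higher and 2 lower (61.5%, median 0.22), both close to the 57.9% called over all genes. Cell type markers differed between these controls as well: of 6 fibroblast markers tested 3 were higher (Dcn 2.09, Pdgfrb 1.49 and Pdgfra 1.10) and 2 lower (Col3a1 -2.15 and Col1a1 -1.03), all 3 epithelial markers tested were higher (Krt18 2.32, Epcam 0.95 and Krt8 0.69), and of 2 leukocyte markers Cd14 was higher (1.23) and Cd68 lower (-3.24). Their part in the member values was not tested.

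Tumors treated with 3B10 showed no called change in any member. In 4T1, 0 of 9 members were called by limma and 0 had an unadjusted p under 0.05, where over all 11467 genes 0 (0%) were called and 719 (6.27%) had an unadjusted p under 0.05. In MMTV-PyMT, 0 of 9 were called by limma and 0 had an unadjusted p under 0.05, where over all 11361 genes 0 (0%) were called and 307 (2.7%) had an unadjusted p under 0.05. The smallest limma adjusted p of any gene was 0.334 in 4T1 and 1 in MMTV-PyMT. Member medians were 0.09 in 4T1 (all genes 0.01) and 0.04 in MMTV-PyMT (all genes 0.05).

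In 4T1 tumors the largest member difference was in Ajuba, at 4.71, 5.19 and 4.98 under C44 and 5.08, 5.47 and 5.63 under 3B10. The groups overlapped in 1 pair of samples, and the difference was 0.44 (95% confidence interval -0.01 to 0.88, limma adjusted p = 0.796). Ccn1 was 7.18, 7.39 and 7.01 under C44 and 7.32, 7.42 and 7.43 under 3B10 (0.20, SE 0.13, limma adjusted p = 0.889). Ccn2 was 7.70, 8.03 and 7.00 under C44 and 6.83, 7.91 and 7.74 under 3B10 (-0.08, SE 0.34), and Ankrd1 was 7.17, 7.60 and 7.41 under C44 and 7.05, 7.75 and 7.79 under 3B10 (0.14, SE 0.22). Replicate 3 of C44 and replicate 1 of 3B10 were the lowest of their groups in Yap1, Wwtr1, Tead1, Lats2, Ccn1 and Ccn2. The other members ranged from -0.07 in Wwtr1 to 0.11 in Yap1, with Amotl2 at 0.09, Lats2 at 0.03 and Tead1 at -0.01, and every member overlapped between the groups.

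With all 6 MMTV-PyMT tumors, Ccn1 had the largest difference and a wide spread, at 8.15, 8.02 and 6.95 under C44 and 7.02, 6.35 and 7.97 under 3B10. Each group held high and low tumors, and the difference was -0.59 (SE 0.46, 95% confidence interval -1.68 to 0.49, limma adjusted p = 1). Ccn2 was 6.00, 6.91 and 5.51 under C44 and 6.75, 6.01 and 6.75 under 3B10 (0.36, SE 0.37), and Ajuba was 5.30, 5.33 and 4.71 under C44 and 5.36, 5.14 and 5.78 under 3B10 (0.31, SE 0.23). Over all alternatives Ccn1 ran from -1.02 to -0.21, Ccn2 from 0.05 to 0.75 and Ajuba from 0.11 to 0.46. Yap1 was the steadiest member, from 7.70 to 7.91 over all 6 tumors (0.07, SE 0.12), and Wwtr1 gave 0.04 (SE 0.12). Values for the rest were -0.17 in Lats2, -0.10 in Ankrd1, 0.08 in Tead1 and -0.05 in Amotl2, and all groups overlapped.

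None of the wider lists held a called gene in either tumor model by limma, and 3 genes in 4T1 and 1 in MMTV-PyMT had an unadjusted p under 0.05. In 4T1 the medians were -0.01 over 20 Hippo core and upstream genes, 0.01 over 7 inhibitors, 0.09 over 7 coactivators and TEAD genes, 0.03 over 19 targets and 0.13 over 15 SRF targets, of which 13 were above 0, against 0.01 over all genes. Smallest p-values there were for Wwc1 (0.46), Taok3 (-0.38) and Stk4 (-0.27), for Ajuba and Wtip (0.06), for Tead2 (0.14), Yap1 and Tead4 (0.22), for F3 (0.62), Nt5e (-0.41) and Ccn1, and for Fhl2 (0.26), Tpm2 (0.71) and Tpm1 (0.30). In MMTV-PyMT the medians in the same order were 0.06, 0.06, 0.07, -0.10 and -0.01, against 0.05 over all genes. The genes with the smallest p-values were Taok2 (0.24), Nf2 (0.20) and Sav1 (0.22), then Ajuba and Limd1 (0.12), then Vgll4 (0.16), Tead2 (0.35) and Yap1, then the kinase Nuak2 (0.74), F3 (-0.57) and Igfbp3 (-0.63), and last Cnn1 (-1.12), Srf (0.17) and Tpm1 (0.15).

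Cell type markers differed between some of the tumors, beside which the member values stand. In 4T1 the leukocyte markers summed, off the log scale, to 752, 676 and 599 under C44 and 461, 507 and 391 under 3B10 (6 of 6 below 0, none called by limma, 5 at an unadjusted p under 0.05), with Cd68 the most abundant in 5 tumors and Csf1r in replicate 2 of 3B10. The epithelial markers summed to 3220, 3490 and 3470 under C44 and 4970, 4510 and 5120 under 3B10 (6 of 6 tested above 0, none called by limma, 5 at an unadjusted p under 0.05), with Krt18 the most abundant. The fibroblast markers summed to 1320, 1800 and 1170 under C44 and 964, 4070 and 1640 under 3B10, and were lowest in replicate 3 of C44 and replicate 1 of 3B10, the tumors that were the lowest of their groups in 6 members. Skeletal muscle markers summed to 12.7, 11.8 and 27.1 under C44 and 39.4, 167 and 254 under 3B10. In MMTV-PyMT the fibroblast markers summed to 2260, 3440 and 1200 under C44 and 2250, 1690 and 1720 under 3B10, and the C44 tumor with the lowest sum, replicate 3, was also the lowest in Ccn1 and Ccn2 under C44, and in the sums of epithelial (3720), leukocyte (216) and endothelial (83) markers. The part of these cell types in the member values was not tested.

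Over the 12 cell line samples, the genes most like 4 of the members were ranked by Pearson r among 10222 genes, each value taken as its difference from the mean of its line. Yap1 was followed most closely by Oga (0.981), Stard4 (0.98) and Rfx7 (0.978), and Wwtr1 by Klhdc10 (0.987), Asb1 (0.965) and Neurl3 (0.963). For Ccn2 these were Ccne1 (0.975), Cstf1 (0.963) and Tgfb2 (0.959), the last also on the target list, and for Ccn1 they were Rras2 (0.939), Tmem33 (0.902) and Egln1 (0.901). No gene was shared between the 4 sets, and the samples share the 2 knockdown contrasts.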

How the data were processed

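RNA was sequenced from 24 samples in 8 groups of 3. The values were deposited as log2 values for 12091 genes, and the authors named HISAT2, featureCounts, limma, edgeR and the mm10 (GRCm38) genome without versions. Neither the step that gave the log2 values nor the filter that left these genes was stated. The design had assumed counts or CPM, and the test was chosen for the log2 scale that was found. In the 18 samples other than 4T1, whole reads were recovered from all values (100%) within 0.05 read, with 0.5 read added before the log, at depths of 15.63 to 21.12 M reads (median 18.25 M), so that members with few reads, such as Ankrd1, were measured coarsely. In 4T1, values followed gene length and the depth is unknown.

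Each experiment was fitted on its own 6 samples, and the differences between lines on 12, with limma 3.58.1 (R 4.3.3, statmod 1.5.0; eBayes with a mean trend and robust priors after lmFit). Genes were kept if, in 3 samples or more, the value off the log scale exceeded the lowest of that sample by 1 or more. Benjamini-Hochberg adjustment ran over all fitted genes, and adjusted p under 0.05 was called. No pseudocount was added in these fits. Figures used matplotlib 3.10.9 under Python 3.11.15. Alternatives were no filter, a filter at 5, a pseudocount of 1, median-of-ratios scaling, quantile normalization, eBayes without trend and robust, a replicate block, voom weights, 12 samples in 1 fit, and leaving out each sample in turn.

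All members were named in every experiment. Of the other lists (Hippo core and upstream, Hippo inhibitors, coactivators and TEAD, YAP and TAZ targets, SRF targets), the called genes were named in the cell lines, at most 4 per list, direction and line by size, and in the tumors at most 3 per list by smallest p; 1 gene of the Hippo inhibitor list is not reported here, so that list was left out in E0771-LG and in the difference between the lines. For Yap1, Wwtr1, Ccn1 and Ccn2 the 3 genes with the highest Pearson r were named. The members and lists were chosen with earlier results of these data known. Promoter sequences were from RefSeq (GRCm38.p6) and exon lengths from the GRCm38 annotation. The fit was tested on simulated data, and the outcome of that test is not given here.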

Additional observations from a re-analysis of the deposited data

Results flagged for a closer look

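For 6 members the knockdown effect differed between the cell lines, by the difference of the 2 effects in limma (E0771-LG minus E0771): Yap1 -0.42, Tead1 -1.38, Lats2 -1.00, Ccn2 -2.41, Amotl2 -2.38 and Ajuba -1.08. What set them apart was an adjusted p under 0.05 for that difference. The cause was not tested.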

How the results depend on the processing

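Of the member values under the alternatives, 798 kept their direction and side of the threshold, 7 lost a call, 17 gained one and 28 changed sign, none of which had been called. Leaving out each sample in turn, values that changed sign ran, in 4T1, from -0.27 to 0.30 in Tead1, -0.06 to 0.32 in Amotl2, -0.37 to 0.25 in Ccn2, -0.13 to 0.22 in Lats2 and -0.20 to 0.00 in Wwtr1; in MMTV-PyMT, from -0.74 to 0.42 in Ankrd1, -0.01 to 0.11 in Wwtr1, -0.12 to 0.32 in Tead1 and -0.13 to 0.08 in Amotl2; and in Yap1 from 0.00 to 0.06, both in E0771 and between the control lines. Other sign changes were Ankrd1 at 0.00 in MMTV-PyMT (pseudocount 1, and quantile normalization) and -0.14 in E0771-LG (quantile normalization), Wwtr1 at -0.01 in MMTV-PyMT (median-of-ratios scaling), and Yap1 at 0.00 between the control lines (quantile normalization); the cause was not tested. Called members ranged, on leaving out a sample, from 4 to 6 in E0771, 3 to 8 in E0771-LG, 6 to 7 for the difference between lines and 5 to 8 between the control lines, and were 0 in both tumor models. The 6 called differences between lines held under all 19 alternatives. All genes called in E0771 fell from 2140 to 1268, 1164 and 1220 without replicate 2 of E0771shCtrl, replicate 3 of E0771shCtrl and replicate 3 of E0771shPTN, and in E0771-LG from 4826 to 3206 without replicate 2 of E0771-LGshPTN, with fewer samples in each fit. Whether samples of the same replicate number were pairs is not stated, and the main fits did not pair them. Correlations between them after removing group means were -0.327, 0.436 and -0.253 in 4T1 and -0.0357, 0.132 and 0.208 in MMTV-PyMT. They were -0.0274, 0.141 and -0.0366 in E0771 and 0.158, 0.237 and -0.117 in E0771-LG. Not every control sample matched its own number best, but so few correlations cannot exclude a pairing. With a replicate block the called members were 0, 0, 4, 4, 6 and 7 and all called genes 0, 0, 2450, 5012, 3762 and 4914, in the order 4T1, MMTV-PyMT, E0771, E0771-LG, difference between lines and control lines, with Amotl2 in E0771-LG the added member (-0.89, limma adjusted p = 0.0013). Ankrd1 had no value under the filter at 5 outside 4T1, and voom was not possible in 4T1, which holds no whole reads. Ankrd1 at 21 to 123 reads per cell sample, and Ccn2 at 37 to 61 in E0771shCtrl, had the fewest reads of the members in the cells.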
